A study of Mus musculus with 12 samples.

Results

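Keratin genes were followed through rhabdoid tumors that arose in P0-CreC;Smarcb1flox/flox mice, 12 in all. Rows counted as keratins were those whose symbol is Krt, then digits, then at most 1 letter, which left out the keratin-associated proteins and Krtdap. The rule found 52 keratins among 24060 gene rows. In these mice, on the FVB/N background, the promoter of the myelin protein zero gene drives Cre recombinase in neural crest cells from mid-gestation and removes both floxed copies of Smarcb1, a subunit of the SWI/SNF chromatin remodeling complex. The labels place 4 tumors retro-orbitally, 3 in the cheek, 3 in the meninges and 1 each at the vestibular and trigeminal nerves, and no normal tissue was included. All tumors shared the genotype, and location was the comparison made here. The authors also sorted these tumors into molecular subgroups by expression, which were not used here. Individual ages were not given in the sources used here. Cheek 2 and cheek 3 share the first part of their tumor identifier, as do cheek 1 and meninges 1, and retro-orbital 3 and the trigeminal nerve tumor. Whether such tumors came from the same animal was not stated. If they did, p-values over tumors can be too small where a pair lies within a location. They can be too large where a pair spans compared locations, as cheek 1 and meninges 1 do.

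Keratins build the intermediate filaments of epithelial cells, and each filament needs a type I and a type II partner. Simple epithelia such as gland and gut lining use Krt8 (type II) with Krt18 (type I), to which ducts add Krt7 (type II) and Krt19 (type I). Stratified epithelia use Krt5 with Krt14 in the basal layer, Krt1 with Krt10 in the suprabasal epidermis, Krt4 with Krt13 in the mucosa of the mouth and esophagus, and Krt6 genes with Krt16 and Krt17 in wounds and appendages, while a large set of hair keratins serves the hair shaft and its sheath. Human rhabdoid tumors are known in pathology for staining with keratins and vimentin in the same tumor. In tumors of this mouse model the authors reported vimentin staining but detected no cytokeratin staining. The values below are RNA of bulk tumors, and no protein was measured here.

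The authors deposited RPKM, a read count scaled to the length of the gene's transcript and to the mapped reads of the tumor, so levels of different genes can be set side by side per length. The totals behind the values, recovered from the even steps between low RPKM values, were 13206171 fragments in cheek 3 to 57128446 in retro-orbital 3. Smarcb1, of which Cre removes only the floxed portion, was at 1.70 to 6.31 RPKM, with no control tissue to compare. Each tumor is a bulk sample, in which fewer cells of a type and less RNA per cell cannot be told apart. The location labels could not be checked against a defining marker. The 5 inner ear markers summed to 0.223 to 0.980 RPKM and the 5 olfactory markers to 6.05 to 13.3 RPKM, of which Adcy3, also expressed in other cells, gave 4.07 to 11.8. Cyp2g1, a cytochrome of the olfactory mucosa, was at 1.77 RPKM in retro-orbital 3, at 0.571 in cheek 1 and at 0.152 or less in the other 10.

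Of the 52 keratins, 23 reached 1 RPKM in at least 1 tumor and 29 did not. All 4 simple keratins reached it, as did 14 of 19 stratified keratins, 1 of 24 hair keratins and 4 of 5 others. Krt75, a keratin of the hair follicle companion layer, was the hair keratin, at 10.1 RPKM in meninges 1 and at most 0.429 elsewhere. Krt33b and Krt39 were listed at 0 in all 12 tumors. The highest of the 15 hair shaft keratins was Krt83 at 0.901 RPKM in retro-orbital 3. The count of 23 became 21 without cheek 3 and 20 without both cheek 2 and cheek 3.

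Keratin load differed widely between tumors. The summed keratin RPKM was 9.07 in retro-orbital 2, 19.5 in meninges 2 and 43.0 in the trigeminal nerve tumor. It lay between 68.8 and 111 in the vestibular nerve tumor, retro-orbital 1, retro-orbital 4 and meninges 3, and reached 326 in cheek 1, 557 in meninges 1, 611 in cheek 2, 781 in retro-orbital 3 and 2070.1 in cheek 3. These sums made up 0.00224% to 0.477% of all RPKM of a tumor. The number of keratins at 1 RPKM or more ran from 2 in retro-orbital 2 to 18 in cheek 1. The sum thus ran over a wide range within the retro-orbital tumors and within the meninges tumors, while all 3 cheek tumors were among the 5 highest. Vim, the vimentin of mesenchymal filaments, was at 114 (vestibular nerve tumor) to 3001 RPKM (retro-orbital 1), and the keratin sum was 0.448% of Vim in retro-orbital 2, 143% in retro-orbital 3 and 163% in meninges 1.

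**Figure D1:**
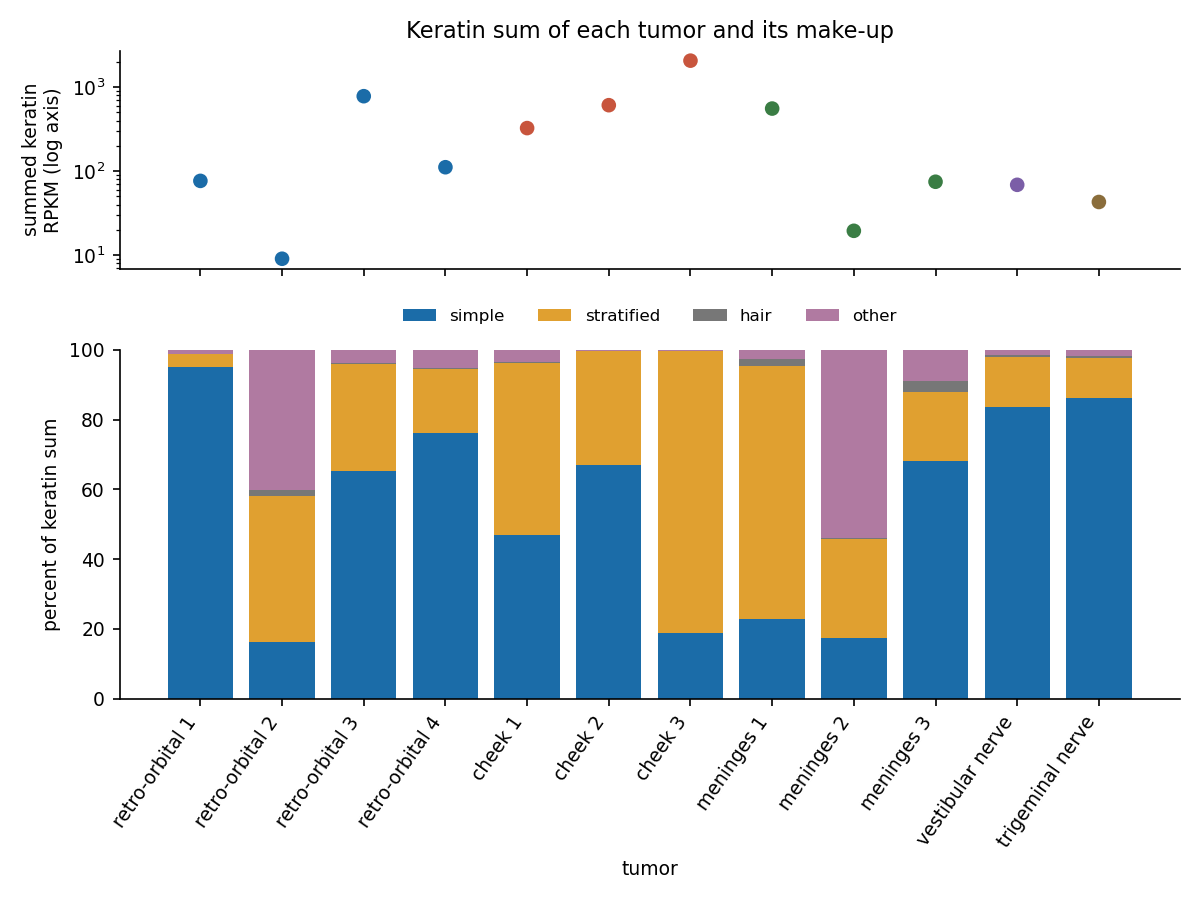
Upper panel, summed RPKM of all 52 keratins in each of the 12 tumors on a log axis, colored by location. Lower panel, the percent of that sum in simple, stratified, hair and other keratins. Simple keratins gave 95.0% in retro-orbital 1 and 16.3% in retro-orbital 2, and stratified keratins gave most of the sum in cheek 3 and meninges 1.

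Simple keratins: Krt8 was at 1 RPKM or more in 11 tumors and Krt18 in 10, against 3 for Krt7 and 4 for Krt19. In the retro-orbital tumors Krt8 was at 42.6, 0.603, 129 and 67.0 RPKM, in the cheek tumors at 65.0, 1.78 and 1.43, in the meninges tumors at 45.8, 2.04 and 44.8, in the vestibular nerve tumor at 35.2 and in the trigeminal nerve tumor at 18.4. Thus 8 tumors lay at 18.4 RPKM or more and 4 (retro-orbital 2, cheek 2, cheek 3 and meninges 2) at 2.04 or less, with the 3 replicated locations overlapping. Its lowest value rested on 32 fragments, so it was detected in every tumor.

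Krt18, the type I partner of Krt8, followed another order. It was at 29.6, 0.607, 221 and 15.6 RPKM in the retro-orbital tumors, 52.5, 408 and 385 in the cheek tumors, 18.3, 0.978 and 5.30 in the meninges tumors, 20.99 in the vestibular nerve tumor and 17.98 in the trigeminal nerve tumor. The cheek tumors all lay above the meninges tumors, whereas the retro-orbital range overlapped both. How many of all genes split cheek from meninges in this way was not counted, and cheek 2 and cheek 3 share an identifier. On the log2(RPKM + 1) scale the cheek minus meninges difference was 5.03 ± 1.61 (SE), which did not pass (limma adjusted p = 0.204), and the cheek minus retro-orbital difference was 3.30 ± 1.51 (limma adjusted p = 0.427).

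Krt7 and Krt19, the keratins of ducts, were low in most tumors. Krt7 was at 0.303, 0.214, 55.9 and 2.11 RPKM in the retro-orbital tumors, 17.97, 0.0773 and 0.0955 in the cheek tumors, 0.963, 0.0959 and 0.106 in the meninges tumors, 0.266 in the vestibular nerve tumor and 0.387 in the trigeminal nerve tumor. Krt19 was at 0.269, 0.0495, 105 and 0.282 RPKM in the retro-orbital tumors, 17.5, 0.112 and 0.165 in the cheek tumors, 61.3, 0.249 and 0.736 in the meninges tumors, 1.02 in the vestibular nerve tumor and 0.275 in the trigeminal nerve tumor. Both genes were thus high in retro-orbital 3 and cheek 1, Krt19 also in meninges 1, and each location with replicates had 1 tumor far above the rest for Krt19. The F test over locations gave adjusted p values of 0.734 for Krt7, 0.751 for Krt8, 0.327 for Krt18 and 0.958 for Krt19 (limma).

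**Figure D2:**
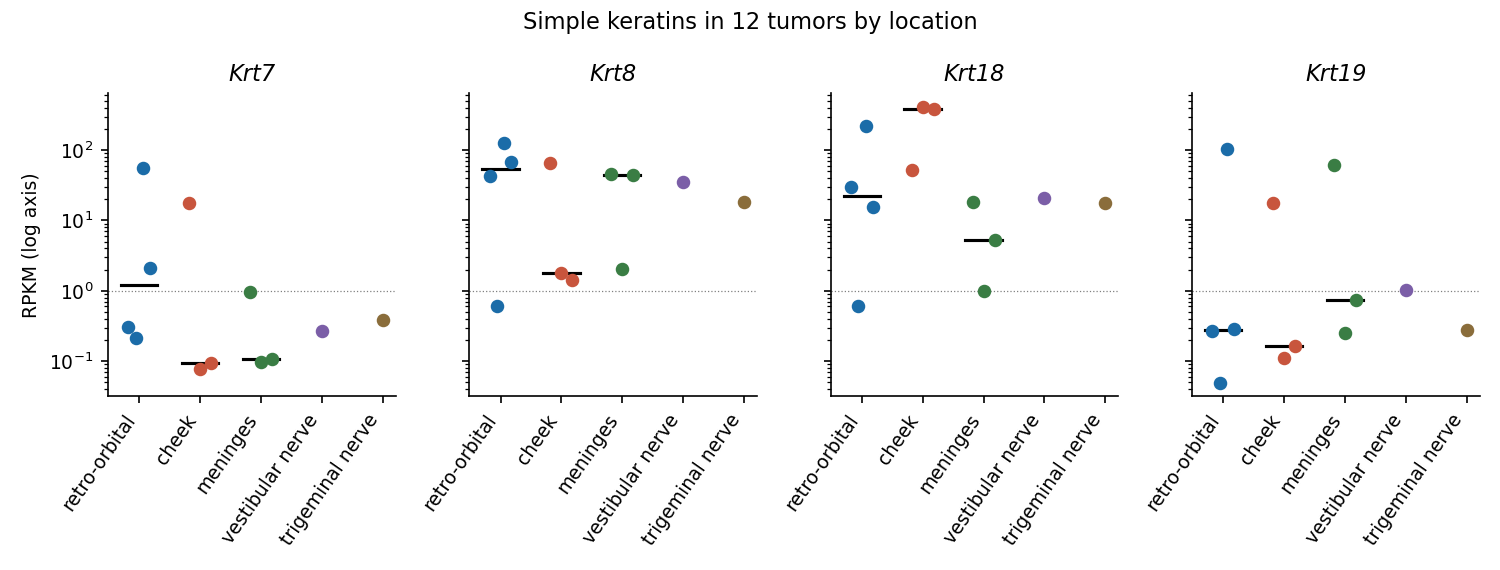
RPKM of Krt7, Krt8, Krt18 and Krt19 on a log axis, 1 point for each tumor, by location. Black bars are medians of the 4 retro-orbital, 3 cheek and 3 meninges tumors, and the dotted line is 1 RPKM. Krt18 in the cheek tumors lies above 52 RPKM in all 3, while Krt8 lies at 65.0 RPKM in 1 of them and under 2 RPKM in the others.

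Krt18 is the type I gene of the type II cluster on chromosome 15, next to its partner Krt8, and the levels of these neighbours parted in 2 of the cheek tumors. Krt18 exceeded Krt8 229-fold in cheek 2 and 270-fold in cheek 3, which share an identifier, whereas the ratio lay between 0.118 (meninges 3) and 1.72 (retro-orbital 3) in the other 10 tumors. In fragments, Krt8 had 105 in cheek 2 and 34 in cheek 3, against 18627 and 7116 for Krt18. Summed over each type, type I keratins were 6.73 times type II keratins in cheek 2 and 2.13 times in cheek 3, within a range of 0.237 (retro-orbital 4) to 6.73 over the 12 tumors. The ratio of Krt18 to Krt8 was chosen for mention after its values were seen and was not tested. The type II keratins with the highest values in cheek 2 were Krt4 at 42.1 and Krt5 at 15.1 RPKM.

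Krt8 (chr15:101996698-102004482, minus strand) and Krt18 (chr15:102028180-102032027, plus strand) face away from each other with 23697 bases between them by the GENCODE M21 annotation of mm10. The bases upstream of their starts are shown because these neighbours had such different levels in cheek 2 and cheek 3. They are from RefSeq on GRCm38.p6, run 5′ to 3′ on the strand of each gene, and stop before the first annotated exon. Capitals mark the E-box letters CAGGTG on either strand, read as CACCTG on the other. The Krt8 sequence covers chr15:102004483-102004592 (minus strand) and the Krt18 sequence chr15:102027966-102028179 (plus strand).
Krt8: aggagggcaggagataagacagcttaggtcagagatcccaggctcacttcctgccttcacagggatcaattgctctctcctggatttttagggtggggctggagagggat
Krt18: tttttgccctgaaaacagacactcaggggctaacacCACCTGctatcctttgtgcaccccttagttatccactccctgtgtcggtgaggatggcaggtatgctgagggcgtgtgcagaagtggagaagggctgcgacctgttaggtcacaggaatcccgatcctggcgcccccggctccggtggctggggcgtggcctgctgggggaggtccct
In the whole window of 250 bases before the RefSeq start, each of the pair held these letters 1 time, Krt8 at 111 to 106 bases and Krt18 at 214 to 209 bases before the start. The Krt8 match lies in an exon of a longer GENCODE transcript and is not among the bases shown. Of 27025 genes with such a window, 17.1% held these letters, and 13 of the 35 keratins with a window did (37.1%). The TATA box letters TATAAA were in 3504 of the 27025 windows and in 17 of 35 keratin windows, the GC box letters GGGCGG in 32.9% and in 2 of 35, and the AP-1 letters TGANTCA in 6.87% and in 1 of 35, each on either strand, and neither the Krt8 nor the Krt18 window held any of them. Neither window had bases shared by 2 of these motifs.

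Stratified keratins, basal layer: Krt5 and Krt14, which form the filaments of basal cells, were high in 5 tumors. Krt5 was at 0.169, 0.326, 86.995 and 14.9 RPKM in the retro-orbital tumors, 44.8, 15.1 and 78.0 in the cheek tumors, 173, 0.260 and 7.29 in the meninges tumors, 3.20 in the vestibular nerve tumor and 0.647 in the trigeminal nerve tumor. Krt14 was at 0.111, 0.143, 60.1 and 1.27 RPKM in the retro-orbital tumors, 53.8, 32.5 and 269.8 in the cheek tumors, 163, 0.137 and 0.745 in the meninges tumors, 0.636 in the vestibular nerve tumor and 0.626 in the trigeminal nerve tumor. Every cheek tumor, retro-orbital 3 and meninges 1 held both genes at 15.1 RPKM or more, but the retro-orbital and meninges ranges reached into the cheek range for each. Krt15, a further basal keratin, stayed between 0 and 4.02 RPKM, highest in cheek 1. The F test gave limma adjusted p values of 0.415 for Krt14, 0.667 for Krt5 and 0.723 for Krt15.

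Stratified keratins, mucosa: Krt13 and Krt4 were high in the cheek alone. Krt13 was at 2.68, 77.0 and 463 RPKM in the cheek tumors and at 0.0518 to 0.526 in the other 9. Krt4 was at 1.84, 42.1 and 202 RPKM in the cheek tumors and at 0.0319 to 0.341 in the other 9. The cheek tumors thus did not overlap the others for either gene, a split whose share among all genes was not counted. Both passed the filter only through the 3 cheek tumors, where they are high, so they had to differ and the values of the fit are a description. On the log2(RPKM + 1) scale Krt13 differed by 5.35 ± 1.26 (SE) for cheek minus retro-orbital (limma adjusted p = 0.212) and by 5.26 ± 1.34 for cheek minus meninges (limma adjusted p = 0.143). Krt4 differed by 4.78 ± 1.11 (limma adjusted p = 0.212) and by 4.57 ± 1.19 (limma adjusted p = 0.143) in the same contrasts. Each fell under the filter when any 1 cheek tumor was left out or 1 tumor was kept for each identifier. With the genes of the full fit kept, the cheek minus retro-orbital difference was 7.24 for Krt13 and 6.46 for Krt4 without cheek 1 (limma adjusted p = 0.00139 and 0.00127), which leaves the 2 cheek tumors of 1 identifier, and 3.76 and 3.38 without cheek 3 (limma adjusted p = 0.726 for each). Krt12, the keratin of the corneal epithelium, reached 0.257 RPKM in retro-orbital 2 at most, and Krt76 of the palate 0.146 in meninges 3.

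Stratified keratins, wound and appendage: Krt6a ran from 0 in retro-orbital 1 to 115 RPKM in cheek 3, where Krt6b reached 107 and Krt16 118. In cheek 1 and cheek 2 Krt6a was at 16.9 and 9.22 RPKM, Krt6b at 1.78 and 6.15, and Krt16 at 1.35 and 8.97. Krt6a and Krt6b are near-identical copies, so the division of reads between them is uncertain. Outside the cheek, Krt6a was at 6.77 RPKM in retro-orbital 3 and 10.5 in meninges 1, Krt6b at 0.352 at most and Krt16 at 5.11 in meninges 1. Krt17 of the basal cells of appendages had another order, with 78.9 RPKM in retro-orbital 3, 28.9 in cheek 1, 28.2 in cheek 3, 19.7 in meninges 1 and at most 1.38 in the other 8.

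Stratified keratins, suprabasal epidermis: Krt10 was the only keratin at 1 RPKM or more in all 12 tumors, at 1.84 to 4.18 RPKM in 11 of them and at 134 in cheek 3. Krt1, its partner in the epidermis, was at 116 RPKM in cheek 3 and at 0.0151 to 0.489 elsewhere, and Krt2, a later epidermal keratin, at 20.6 in cheek 3 and 0.108 or less elsewhere. Krt10 thus stood above Krt1 in all 12 tumors, in cheek 3 by little. Krt78 was at 16.5 RPKM in cheek 3 and 2.75 in cheek 2, and Krt24 at 27.7 in meninges 1 and 7.35 in cheek 3. Krt9, the keratin of footpads, Krt77 and Krt79 never reached 1 RPKM.

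Other keratins: Krt222 is a keratin-like gene at the edge of the type I cluster on chromosome 11. It was higher in the meninges tumors, at 6.94, 10.1 and 5.96 RPKM, than in all others (0.435 to 3.81). Krt222 was among the 3 tested keratins picked for the lowest F test p. How many of all genes separate the meninges tumors in this way was not counted. The difference was 1.97 ± 0.50 (SE) on the log2(RPKM + 1) scale for meninges minus retro-orbital (limma adjusted p = 0.397) and -1.83 ± 0.54 for cheek minus meninges (limma adjusted p = 0.174). Without cheek 1 the latter became -2.33 and passed (limma adjusted p = 0.0427). Krt80, a widely expressed keratin, was at 0.375, 3.05, 2.79 and 2.64 RPKM in the retro-orbital tumors, 1.89, 1.04 and 3.71 in the cheek tumors and 0.222 to 0.300 in the meninges tumors. The meninges tumors thus lay below both other replicated locations, retro-orbital 1 by little. Low Krt80 was not particular to them, with 0.0397 RPKM in the vestibular nerve tumor and 0.0799 in the trigeminal nerve tumor. The share of all genes with such a split was not counted. Its cheek minus meninges difference was 1.28 ± 0.46 (SE) on the log2(RPKM + 1) scale (limma adjusted p = 0.233). Krt23 was at 25.0 RPKM in retro-orbital 3, Krt42 at 5.52 in meninges 1, and Krt20, a keratin of gut and urothelium, at 0.475 or less.

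**Figure D3:**
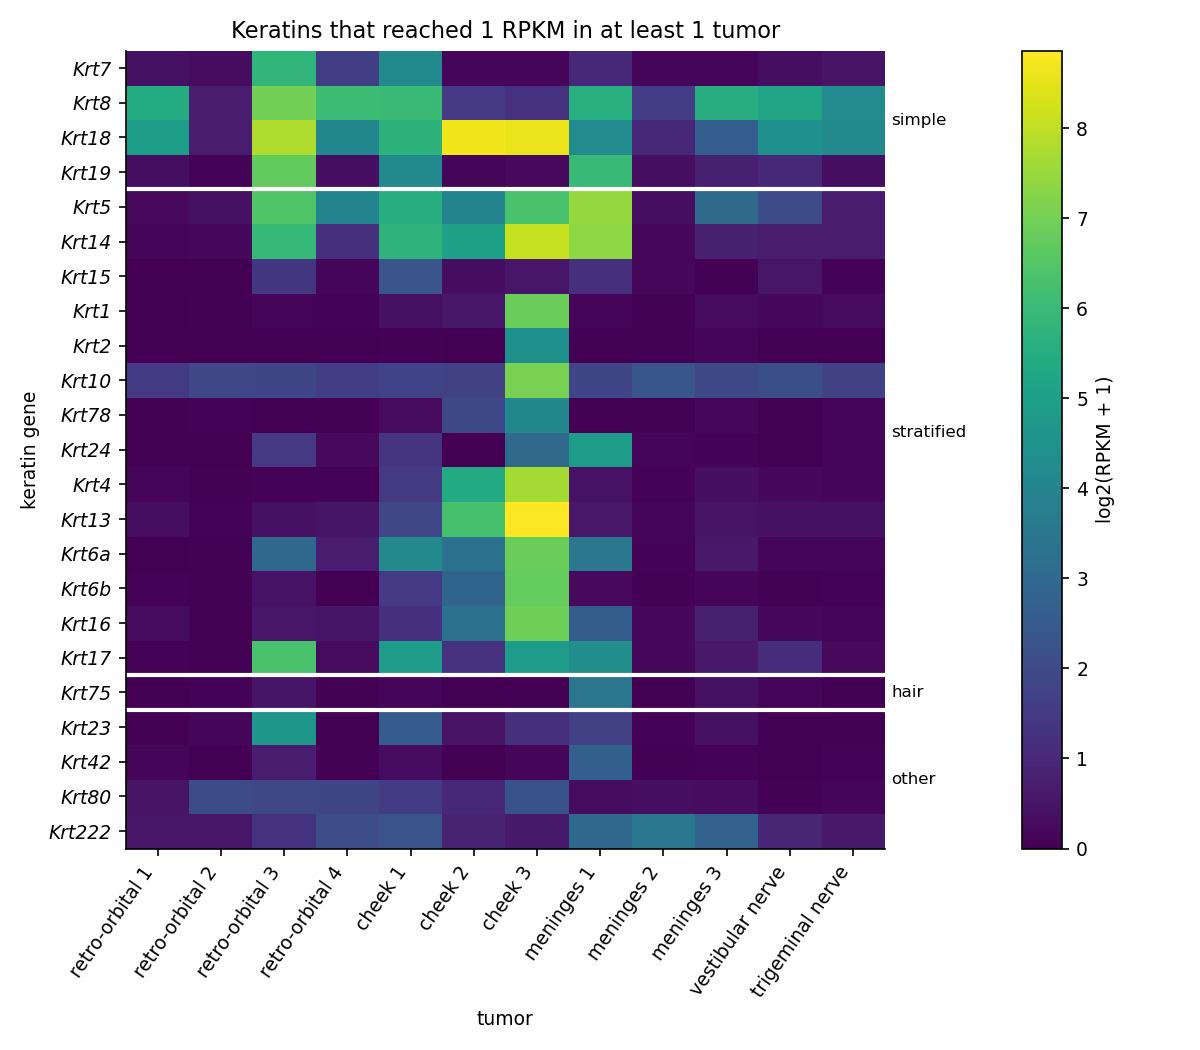
Each row is 1 of the 23 keratins that reached 1 RPKM in at least 1 tumor and each column a tumor, with color giving log2(RPKM + 1). White lines separate simple, stratified, hair and other keratins. Krt10 is above 1 RPKM in every column, Krt1 and Krt2 are bright in cheek 3 only, and retro-orbital 2 has 2 keratins at 1 RPKM or more.

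Across the replicated locations, 0 of the 18 keratins tested passed the F test of limma at an adjusted p of 0.05, where 0.0407% of the 14745 genes tested passed (6 genes). In the contrasts, 0 of 18 passed for cheek minus retro-orbital (0.0271% of genes), for meninges minus retro-orbital (0.0203%) and for cheek minus meninges (0.0475%). At an unadjusted p under 0.05 the F test had 8 of the 18 keratins and 14.3% of all genes, but the filter of 1 RPKM in at least 3 of the 10 tumors let in keratins through the location where they were high. With no filter on low values it had 10 of 50 keratins, the others being at 0 in the fitted tumors, against 12.4% of all genes. Without cheek 3 it had 2 of 15 keratins against 7.47% of genes, and with 1 tumor for each identifier 2 of 10 against 5.50%. The 3 with the lowest p were Krt13 (0.00343), Krt4 (0.00349) and Krt222 (0.0063) (limma, unadjusted), the first 2 of which were tested only through the cheek tumors, as was Krt6b. With the tumor identifier as a block in limma, an alternative chosen after seeing the data, 3 of the 18 keratins passed the F test (Krt7, Krt15 and Krt222) beside 2802 of the 14745 genes, and 4 passed cheek minus meninges (those and Krt80) beside 4243 genes, with 0 in each of the other contrasts. The correlation of that fit (0.93) rests on 2 pairs, cheek 2 with cheek 3 and cheek 1 with meninges 1, and only the latter links 2 locations.

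Simple against stratified keratins did not separate the locations. The log2 of the summed simple keratins minus that of the summed stratified keratins, each with 1 RPKM added, was 4.25, -0.95, 1.08 and 2.01 in the retro-orbital tumors, -0.07, 1.04 and -2.11 in the cheek tumors and -1.67, -0.58 and 1.72 in the meninges tumors. Their means were 1.598 ± 2.16 (SD, n = 4), -0.38 ± 1.601 (SD, n = 3) and -0.18 ± 1.73 (SD, n = 3), and the locations overlapped. The vestibular and trigeminal nerve tumors were at 2.43 and 2.66, with no replicate. As a score over keratins it was described with no test. Leaving out cheek 3 turned the cheek mean to 0.49 and leaving out meninges 1 turned the meninges mean to 0.57, as did leaving Krt10 out of the stratified sum for the meninges (0.41).

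Partner pairs were compared over the 12 tumors on log2(RPKM + 1), with permutation p values adjusted over 6 pairs. Krt5 and Krt14 had r = 0.92 (permutation p = 1e-05, the smallest the permutations can give, adjusted 6e-05) and rho = 0.98 (adjusted permutation p = 6e-05), and without the 2 tumors farthest from the median of Krt5 r was 0.89. Krt4 and Krt13 had r = 0.999 (permutation p = 4e-05, adjusted 0.00012) and rho = 0.83 (permutation p = 0.0015, adjusted 0.0029), with r = 0.97 and rho = 0.71 (permutation p = 0.026, adjusted 0.052) without cheek 2 and cheek 3. Krt6a and Krt16 had r = 0.88 (permutation p = 0.00057, adjusted 0.0011) and rho = 0.86 (permutation p = 0.00058, adjusted 0.0017), with r = 0.84 without the 2 farthest tumors. With 1 tumor for each identifier, r was 0.88 for Krt5 and Krt14 (adjusted permutation p = 0.004). It was 0.69 for Krt6a and Krt16 there (adjusted permutation p = 0.041). Both pairs thus went together across tumors, though not at equal levels. Krt6a was at 6.77 RPKM and Krt16 at 0.447 in retro-orbital 3, and in cheek 1 they were at 16.9 and 1.35. The r of Krt4 and Krt13 rested on the cheek tumors, since both genes stayed at 0.526 RPKM or less elsewhere.

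The other pairs did not hold in the same way. Krt7 and Krt19 had r = 0.78 (permutation p = 0.017, adjusted 0.026) and rho = 0.77 (permutation p = 0.0049, adjusted 0.0074), but r was 0.36 (adjusted permutation p = 0.20) without retro-orbital 3 and cheek 1, so the Pearson r rested on those tumors, and rho there was 0.62 (permutation p = 0.06, adjusted 0.09). With 1 tumor for each identifier, which keeps retro-orbital 3 and cheek 1, r was 0.96 (adjusted permutation p = 0.011). The rho was then 0.73 (adjusted permutation p = 0.047). Krt1 and Krt10 had r = 0.98 (permutation p = 0.050, adjusted 0.060) and rho = 0.24 (permutation p = 0.44, adjusted 0.53), and r was -0.0015 without cheek 3 and cheek 2. Krt8 and Krt18 had r = 0.12 (permutation p = 0.71, adjusted 0.71) and rho = 0.10 (permutation p = 0.75, adjusted 0.75), with r = 0.12 also without the 2 tumors farthest from the median of Krt8 and 0.38 with 1 tumor for each identifier.

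**Figure D4:**
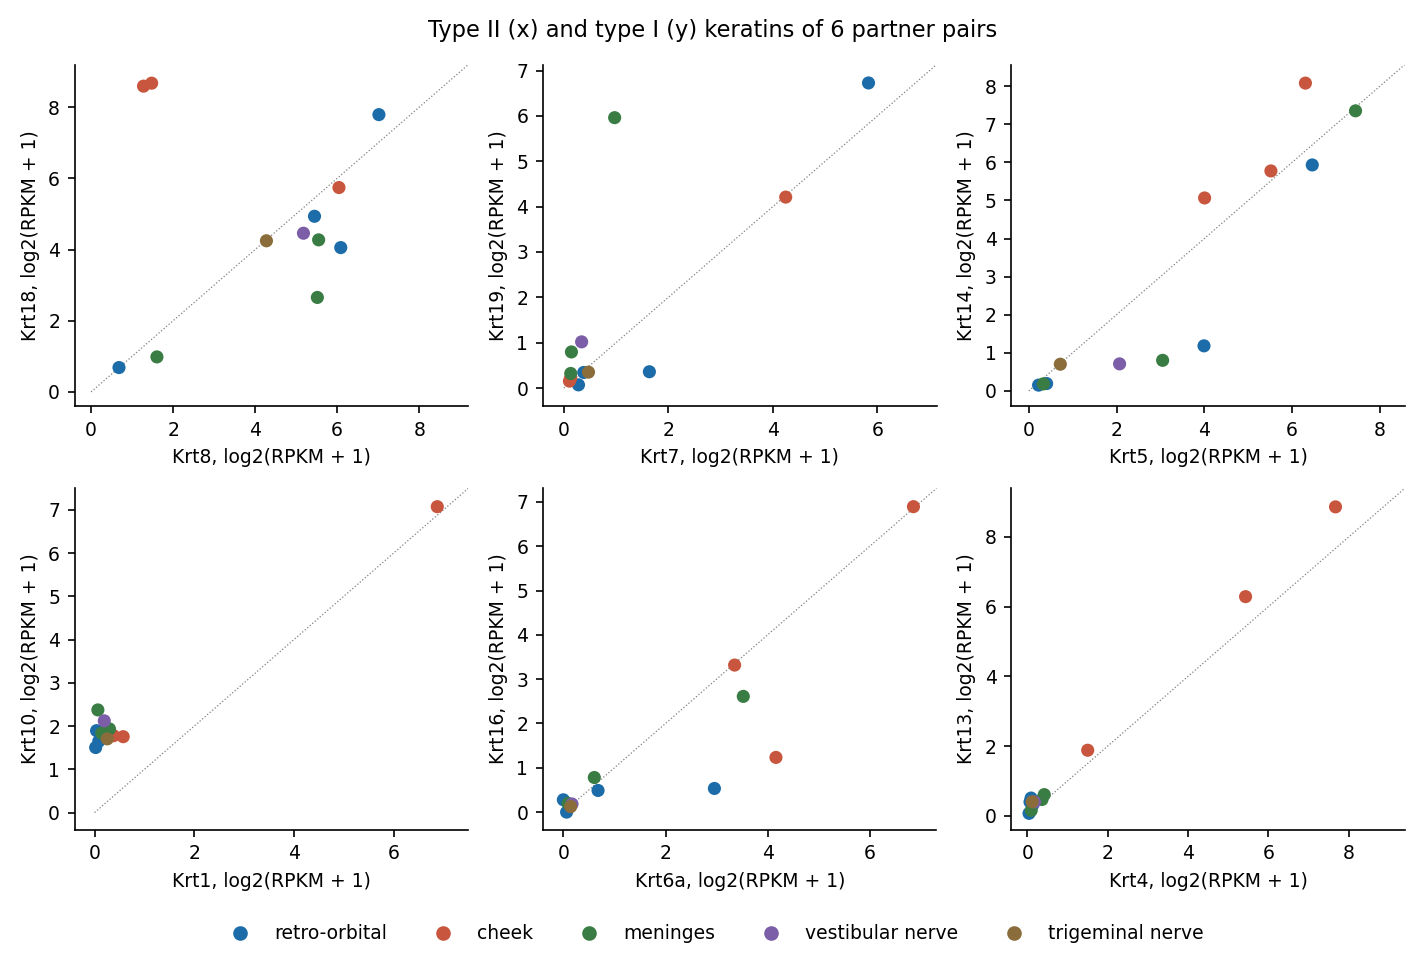
Type II keratin (x axis) and type I keratin (y axis) of 6 partner pairs on log2(RPKM + 1), 1 point for each of 12 tumors, colored by location, with a dotted line of equality. Cheek 2 and cheek 3 lie far above the line for Krt8 and Krt18, and the pooled r of Krt1 and Krt10 rests on cheek 3.

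Other epithelial genes had an order of tumors of their own. The 14 genes of epithelial identity and junctions, chosen with the keratin classes, summed to 8.28 RPKM in retro-orbital 2 and 834 in the vestibular nerve tumor, with ranges of 8.28 to 605 in the retro-orbital, 32.6 to 365 in the cheek and 31.4 to 482 in the meninges tumors. All 14 were at 1 RPKM or more in retro-orbital 3, cheek 1 and meninges 1, and 3 were in each of retro-orbital 1 and retro-orbital 2. Epcam, an epithelial adhesion molecule, was at 1.601 to 551 RPKM, Sfn at 1.46 to 163 and Dsc3, a desmosomal cadherin, at 0.0636 to 88.4. Epcam was highest in the vestibular nerve (551), trigeminal nerve (258) and meninges 3 (245) tumors, where the keratin sum was 68.8, 43.0 and 74.8 RPKM, so the order of Epcam was not that of the keratins. Trp63, the master regulator of stratified epithelium, was at 0 in retro-orbital 2 and highest in meninges 1 at 8.96 RPKM.

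Of the 11 cornified layer genes listed, 10 were in the files and 8 reached 1 RPKM in some tumor. Their sum was 269.2 RPKM in cheek 3, against 0.566 to 24.9 in the retro-orbital tumors, 27.1 and 30.1 in the other cheek tumors and 3.16 to 46.9 in the meninges tumors. Krtdap was at 110 RPKM and Calml3 at 34.7 in cheek 3, beside the Krt1, Krt2 and Krt10 values given above, while Krtdap was at 0 in retro-orbital 1, retro-orbital 2 and retro-orbital 4. The 9 genes that anchor keratins to junctions summed to 95.2 to 253.9 RPKM, with Ppl at 0.259 to 91.2, Plec at 13.4 to 82.1 and Dst at 6.88 to 82.3. Dsp, the desmosomal plaque protein that binds keratin, was at 0.1001 to 34.3 RPKM and reached 13.7 or more in retro-orbital 3, cheek 1, cheek 3, meninges 1 and meninges 3.

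Markers of neighbouring tissues also differed between tumors, and their part in the results was not tested. The 8 lacrimal and salivary gland genes summed to 232 and 241 RPKM in cheek 3 and cheek 2 and to 23.1 in cheek 1. Their sum was 2.60 to 112 in the retro-orbital and 7.81 to 70.5 in the meninges tumors. Aqp5 gave nearly all of it in cheek 2 and cheek 3 (236 and 231 RPKM). In retro-orbital 1, the lowest of its location, Aqp5 was at 0.452 RPKM and Smr3a at 1.84. Of the secretory genes proper, Dcpp2 reached 3.46 RPKM in cheek 2 and Lpo 1.82 in meninges 3, and Prol1 was at 0 in 10 tumors. The 5 skeletal muscle genes summed to 8.10 to 157 RPKM in the retro-orbital, 30.5 to 423 in the cheek and 3.998 to 282 in the meninges tumors. The sum was highest in cheek 2, where Acta1 was at 196, Tnnt3 at 124 and Myh1 at 77.4 RPKM. Acta1 and Ckm were highest there. Tnnt3 was highest in meninges 1 (165 RPKM), Myh1 in meninges 3 (154) and Myh4 in the vestibular nerve tumor (27.3). In retro-orbital 3, where Krt7, Krt17, Krt19 and Krt23 were far above the other retro-orbital tumors, all 5 ciliated epithelium genes were at 1 RPKM or more and summed to 87.1 RPKM, against 2.57 to 6.16 in the other retro-orbital, 5.67 to 9.24 in the cheek and 3.94 to 6.82 in the meninges tumors, with Foxj1 at 39.2, Rsph1 at 24.8 and Dnah5 at 11.3. The 5 choroid plexus genes summed to 99.5 RPKM in the vestibular nerve tumor, of which Ttr gave 96.1, to 61.2 in retro-orbital 3, of which Clic6 gave 54.4 with Folr1 at 5.51, and to at most 12.0 in the rest.

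Among the 14745 genes tested and outside the keratins, those with the highest Pearson r to Krt8 on log2(RPKM + 1) over 12 tumors were Mir34a (r = 0.90), Stx3 (0.88), Wfdc2 (0.88), Pm20d2 (0.87) and Etl4 (0.87). Among those nearest to Krt14 were Dsg3 (0.96), a desmosomal cadherin, Pkp1 (0.94), a desmosomal plaque protein, Serpinb5 (0.94) and Trim29 (0.91). These 4 were highest in cheek 3, with 9.82 RPKM for Dsg3 and 14.8 for Pkp1. These are descriptions of the likeness of 2 genes over the same 12 libraries and were not tested.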

How the data were processed

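RNA of 12 tumors (frozen tissue, RiboZero Gold depletion, TruSeq Stranded libraries) was sequenced by the authors in 1 pool, aligned to mm10 with STAR, restricted to uniquely mapped reads and counted on RefSeq genes with HTSeq. They deposited RPKM per gene and tumor. The transcript length, the mapped-read total and the strand setting were not given in the sources used here. The submitters' processing notes also name bcl2fastq 2.17, edgeR and limma. Uniquely mapped reads can undercount near-identical copies such as Krt6a and Krt6b.

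Keratins were matched by symbol, and 27 rows holding a date in place of a symbol were kept but not named. Tests used limma 3.58.1 in R 4.3.3 on log2(RPKM + 1) (lmFit, then eBayes with trend and robust), for genes at 1 RPKM or more in at least 3 of the 10 tumors of the 3 replicated locations, with Benjamini-Hochberg adjustment at 0.05 over all genes tested. This scale understates changes of low genes. The vestibular and trigeminal nerve tumors, 1 each, entered no fit. Pairs used 100000 two-sided permutations. The scripts were tested on simulated data. Fragment totals were recovered from genes with 1 transcript length in GENCODE M21, where 57.4 to 68.9% of the low values used came out whole (within 0.02). Fragments of a keratin were counted at the smallest length that makes its 12 values whole within 0.01. The totals recovered in this way were 13206171 to 57128446 fragments per tumor and are inferred, not reported. The paper's methods give sequenced reads per sample over a narrower range, and the totals were not checked against them. Positions are from GENCODE M21, where 51 of 52 keratins had one. Other steps ran in Python 3.11.15 (pandas 2.3.3, scipy 1.17.1, numpy 2.4.6), with figures in matplotlib 3.10.9.

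Keratins, classes, marker lists and tests were chosen with earlier results of these data known. Genes named were Krt7, Krt8, Krt18 and Krt19 in every tumor, keratins that reached 1 RPKM, the 3 tested keratins with the lowest F test p where none was called, partner pairs, up to 3 genes of each marker list with the highest value, up to 5 genes most like Krt8 and Krt14 (1 of these is not reported here), Smarcb1 and Vim. Others (Krt9, Krt12, Krt20, Krt33b, Krt39, Krt76, Krt77, Krt79, Krt83, Trp63, Dsp, Cyp2g1, Lpo, Prol1 among them) were chosen after their values were seen. The pseudocount, filter, scaling, classes, threshold, tumors and the identifier as a block were varied.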

Additional observations from a re-analysis of the deposited data

Results flagged for a closer look

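A gap test within the 4 retro-orbital tumors (the gap of the highest or lowest tumor to its nearest neighbour over the whole range, against the 95% limit of Dixon for groups of that size) was run on the 23 keratins that reached 1 RPKM. It marked 13 of them, where chance marks about 1 in 20 groups, or 1.15 of 23. In these libraries the same test marked 15.8% of the 16960 genes that reached 1 RPKM in any tumor, and 8.03% with retro-orbital 3 on the high side. For 12 the tumor set apart was retro-orbital 3, on the high side. The gap was 0.966 for Krt7, 0.868 for Krt18 and 0.998 for Krt19 among the simple keratins. It was 0.83 for Krt5, 0.981 for Krt14 and 0.951 for Krt15 in the basal group, and 0.911 for Krt6a, 0.887 for Krt6b and 0.998 for Krt17 in the wound and appendage group. For Krt23, Krt24 and Krt75 it was 0.996, 0.909 and 0.879, although Krt6b and Krt75 were at 0.352 and 0.429 RPKM in that tumor. The remaining one was Krt80, with a gap of 0.847 for retro-orbital 1, the lowest at 0.375 RPKM. The keratins are not independent of each other, since all values of retro-orbital 3 come from 1 library, which also had the highest fragment total. Krt8 was not marked.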

How the results depend on the processing

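No paired analysis was possible because the labels give no replicate numbers and only 1 identifier (cheek 1 and meninges 1) links 2 of the compared locations. No keratin passed the F test or a contrast under any pseudocount, filter or scaling tried, nor with 1 tumor for each identifier, an alternative chosen after seeing the data. Leaving out 1 tumor and filtering again gave 0 keratins in each test except 1 for cheek minus meninges (Krt222, without cheek 1). With the genes of the full fit kept, also chosen after seeing the data, the range was 0 to 2 for the F test and cheek minus retro-orbital (Krt13 and Krt4), 0 for meninges minus retro-orbital and 0 to 4 for cheek minus meninges (those, Krt6b and Krt222), each time called only without cheek 1. The identifier as a block, chosen after seeing the data too, gave 3 keratins and 2802 genes in the F test, 4 and 4243 for cheek minus meninges, 0 and 2 for cheek minus retro-orbital and 0 and 3 for meninges minus retro-orbital, with a correlation of 0.93 from 2 pairs. The genes called by the F test went from 6 to 10 with no filter, 12 after rescaling to TPM, 0 with 1 tumor for each identifier and 0 to 200 when 1 tumor was left out. For cheek minus retro-orbital, 4 became 2 with no filter, 0 with 1 tumor for each identifier and 0 to 149 without 1 tumor. For meninges minus retro-orbital, 3 became 7 with no filter, 9 after rescaling, 0 with 1 tumor for each identifier and 0 to 41 without 1 tumor. For cheek minus meninges, 7 became 2 with a pseudocount of 0.1, 18 with no filter, 13 after quantile normalization, 16 after rescaling, 0 with 1 tumor for each identifier and 0 to 529 without 1 tumor. The highest counts came without cheek 1 (200, 149 and 529) or without retro-orbital 3 (41), and the causes were not tested.

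The log2 differences of Krt18 kept their direction in every alternative. Others, none of which had passed the threshold, turned. For cheek minus retro-orbital, Krt7 became 0.14 with 1 tumor for each identifier and 0.59 with the identifier as a block, and ran from -1.91 to 0.73 without 1 tumor, and Krt19 from -1.69 to 1.27. For meninges minus retro-orbital, Krt8 ran from -1.96 to 0.72 and Krt19 from -1.32 to 2.10 without 1 tumor. For cheek minus meninges, Krt8 became 0.20 with 1 tumor for each identifier and 0.31 under the block, Krt7 ran from -0.30 to 1.77 and Krt19 from -2.17 to 0.97 without 1 tumor, and Krt7 was 3.02 under the block (limma adjusted p = 0.00766). These ranges hold all 10 tumors left out in turn with the genes of the full fit kept. When the filter was applied again, Krt7 dropped out without retro-orbital 3, retro-orbital 4 or cheek 1 and Krt19 without retro-orbital 3, cheek 1 or meninges 1. The r of Krt7 and Krt19 fell to 0.3632 without the 2 farthest tumors and was 0.9622 with 1 tumor for each identifier. That of Krt1 and Krt10 turned to -0.0015 without the 2 farthest tumors and to -0.09 with 1 tumor for each identifier. The number of keratins reaching 1 RPKM was 24 at a threshold of 0.5 RPKM, 21 at 5 RPKM and 19 in at least 2 tumors.

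By the recovered totals depth is not even: 3 fragments of Krt8 are worth 0.029 to 0.126 RPKM depending on the tumor, so levels under that are not told from 0. Of the 12 tumors, 6 share an identifier with another.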

Other observations

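Outside the genes named by rule, those most like Krt18 over the 12 tumors were Adss (r = 0.955), Ccrn4l (0.88), Zfp622 (0.856), 6430531B16Rik (0.847) and Lrrc59 (0.839). They were looked up after the Krt18 values of cheek 2 and cheek 3 were seen and were not tested. Adss ran from 31.5 to 74.4 RPKM, highest in cheek 2, a far narrower range than the 0.607 to 408 RPKM of Krt18. No gene was shared between these 5 and the 5 most like Krt8.

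Keratins on chromosome 11 (27 genes) and chromosome 15 (24 genes) lie in runs of 1037111 and 684584 bases, and 11 and 12 of them reached 1 RPKM in some tumor. Krt18 is the type I gene at the end of the chromosome 15 run, beside Krt8.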
